A study of Homo sapiens with 12 samples.

Results

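Interferons make cells raise a broad set of genes whose products block viruses at entry, during genome copying, during protein synthesis and at release. This report follows 40 such effector genes, chosen by name, on 12 Illumina bead arrays of one human ovarian cancer line. Every probe whose gene in the annotation table was one of the 40 was taken, which gave 63 of the 48803 probes and at least 1 probe for each of the 40 genes, out of 18852 genes with a probe. The cells were SKOV3ip, a subline of SKOV3 (the name the source labels use). There were 4 arrays of cells given an siRNA against EZH2 (EZH2 siRNA), 4 of cells given a control siRNA (control siRNA) and 4 of cells given no siRNA (untransfected). EZH2, the target, is the catalytic subunit of a chromatin complex that places a repressive methyl mark on histones. The series title asks about angiogenesis, not about interferon. The labels give no time after transfection, no reagent and no siRNA sequence, and nothing in them says whether the 4 arrays of a group were separate cultures. The p-values therefore weigh a difference between groups against the spread of arrays within groups, a spread that may be technical. The results stand for 1 line. Whether each siRNA was a single sequence or a pool is not given.

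Type I and type III interferons, made by cells that sense viral nucleic acid or other foreign RNA, act through receptors, Janus kinases and a DNA-binding complex that contains IRF9. That complex binds a short promoter element, the interferon-stimulated response element (ISRE). Interferon gamma acts mainly through another element, the gamma-activated sequence (GAS). Most of the 40 genes are textbook targets of the first route, and some, such as the guanylate-binding proteins and the chemokines CXCL10 and CXCL11, respond strongly to interferon gamma as well.

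Levels are given as log2 of the background-corrected, quantile-normalised intensity, and a difference of 1 on this scale is a doubling. A gene is represented by its brightest tested probe, so a gene's level can be compared between groups but not with another gene's. A probe was tested if it exceeded its array's own background on at least 4 of the 12 arrays, and it was called at an adjusted p under 0.05 in limma, adjusted over all 17297 tested probes. Of the 40 genes, 35 were tested, through 49 probes. The 5 that were not tested were the chemokines CXCL10 and CXCL11, APOL6, the mitochondrial nucleotide kinase CMPK2 and the dNTP hydrolase SAMHD1. CXCL10, CXCL11, APOL6 and SAMHD1 lay above background on 0 arrays and CMPK2 on 1 EZH2 siRNA array, so for these genes no difference was detectable at this signal.

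The mean raw signal per array ran from 186 to 284 intensity units with EZH2 siRNA, from 291 to 386 with control siRNA and from 156.7 to 410 in untransfected cells, so every EZH2 siRNA array was dimmer than every control siRNA array. Normalised arrays of 1 group correlated at 0.980 to 0.992. EZH2 itself had log2 levels of 6.51, 6.80, 6.95 and 6.45 with EZH2 siRNA, 7.47, 7.67, 7.73 and 7.36 with control siRNA and 7.95, 7.77, 7.86 and 8.36 in untransfected cells. It fell by 0.88 between EZH2 siRNA and control siRNA (SE 0.15, adjusted p = 0.00131), as its label says. Between 9 and 10 of the 11 epithelial markers lay above background on each array, with CDH1 above it on 0 arrays. The leukocyte markers PTPRC, CD3E, CD14, CSF1R, ITGAM, NKG7 and HLA-DRA lay above background on 0 arrays. LYZ, the leukocyte marker lysozyme, lay above background on 5 arrays and was not called in any of the 3 comparisons. CD68, a lysosomal protein counted among those markers, was above background on 12 arrays and was called higher with control siRNA than without siRNA (log2 fold change 0.78, adjusted p = 0.00119). In bulk RNA, fewer cells expressing a gene and less RNA of it per cell cannot be told apart.

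Promoter letters are described first, to see which members carry the letters of the element that the IRF9-containing complex binds. RefSeq promoter windows on GRCh38.p14, 250 bases before to 50 bases after each transcription start, were at hand for 31 of the 40 members. The ISRE was searched as 2 copies of GAAA with 2 bases of any kind between them, and the GAS as TTCNNNGAA, on both strands. ISRE letters stood in 21 of the 31 members (67.7%), against 1195 of the 27305 genes with a window (4.38%) and 1255 of all 35116 windows (3.57%). GAS letters stood in 10 of the 31 members (32.3%), against 9.38% of all genes with a window and 7.66% of all windows. In some members the GAS letters overlapped an ISRE match. A match is only a description of the letters in this window. The stretches below are shown because they belong to the members that differed most after transfection, to BST2, which differed between the siRNAs, and to 2 members that carry the letters but were not called after control siRNA (IFIT5 and LGALS3BP). They are printed 5′ to 3′ on the gene's strand, end at or before the transcription start, and have the fixed letters of each ISRE match that ends before the start, or of its reverse complement, in capitals.
MX1: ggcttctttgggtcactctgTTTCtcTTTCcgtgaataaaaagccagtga
IFI27: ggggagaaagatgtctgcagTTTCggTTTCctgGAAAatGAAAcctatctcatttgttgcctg
IFI6: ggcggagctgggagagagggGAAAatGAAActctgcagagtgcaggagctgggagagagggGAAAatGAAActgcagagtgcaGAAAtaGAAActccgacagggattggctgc
IFI44: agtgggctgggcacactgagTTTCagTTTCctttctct
IFIT1: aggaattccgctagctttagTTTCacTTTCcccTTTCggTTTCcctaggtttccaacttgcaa
BST2: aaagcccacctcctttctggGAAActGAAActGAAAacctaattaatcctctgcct
IFIT5: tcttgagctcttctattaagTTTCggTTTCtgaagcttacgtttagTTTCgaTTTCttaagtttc
LGALS3BP: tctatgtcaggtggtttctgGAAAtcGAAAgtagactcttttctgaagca

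The stretches lie at chr21:41431834-41431883 (MX1, plus strand), chr14:94110608-94110670 (IFI27, plus), chr1:27672256-27672368 (IFI6, minus), chr1:78649751-78649788 (IFI44, plus), chr10:89392487-89392549 (IFIT1, plus), chr19:17405725-17405780 (BST2, minus), chr10:89414503-89414567 (IFIT5, plus) and chr17:78979952-78980001 (LGALS3BP, minus). IFI6 held 3 upstream matches, the nearest 93 and the farthest 156 bases before the start. IFI27 and IFIT1 held 2 each, between 95 and 116 bases before it. In BST2 the 2 matches share letters. The MX1 match lay 196 bases and the IFI44 match 18 bases before the start of the transcript whose window is shown; MX1 and IFI44 have windows for more than 1 start. The last 4 bases of the IFIT5 stretch, left in lower case, open another match that runs past the start.

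**Figure D1:**
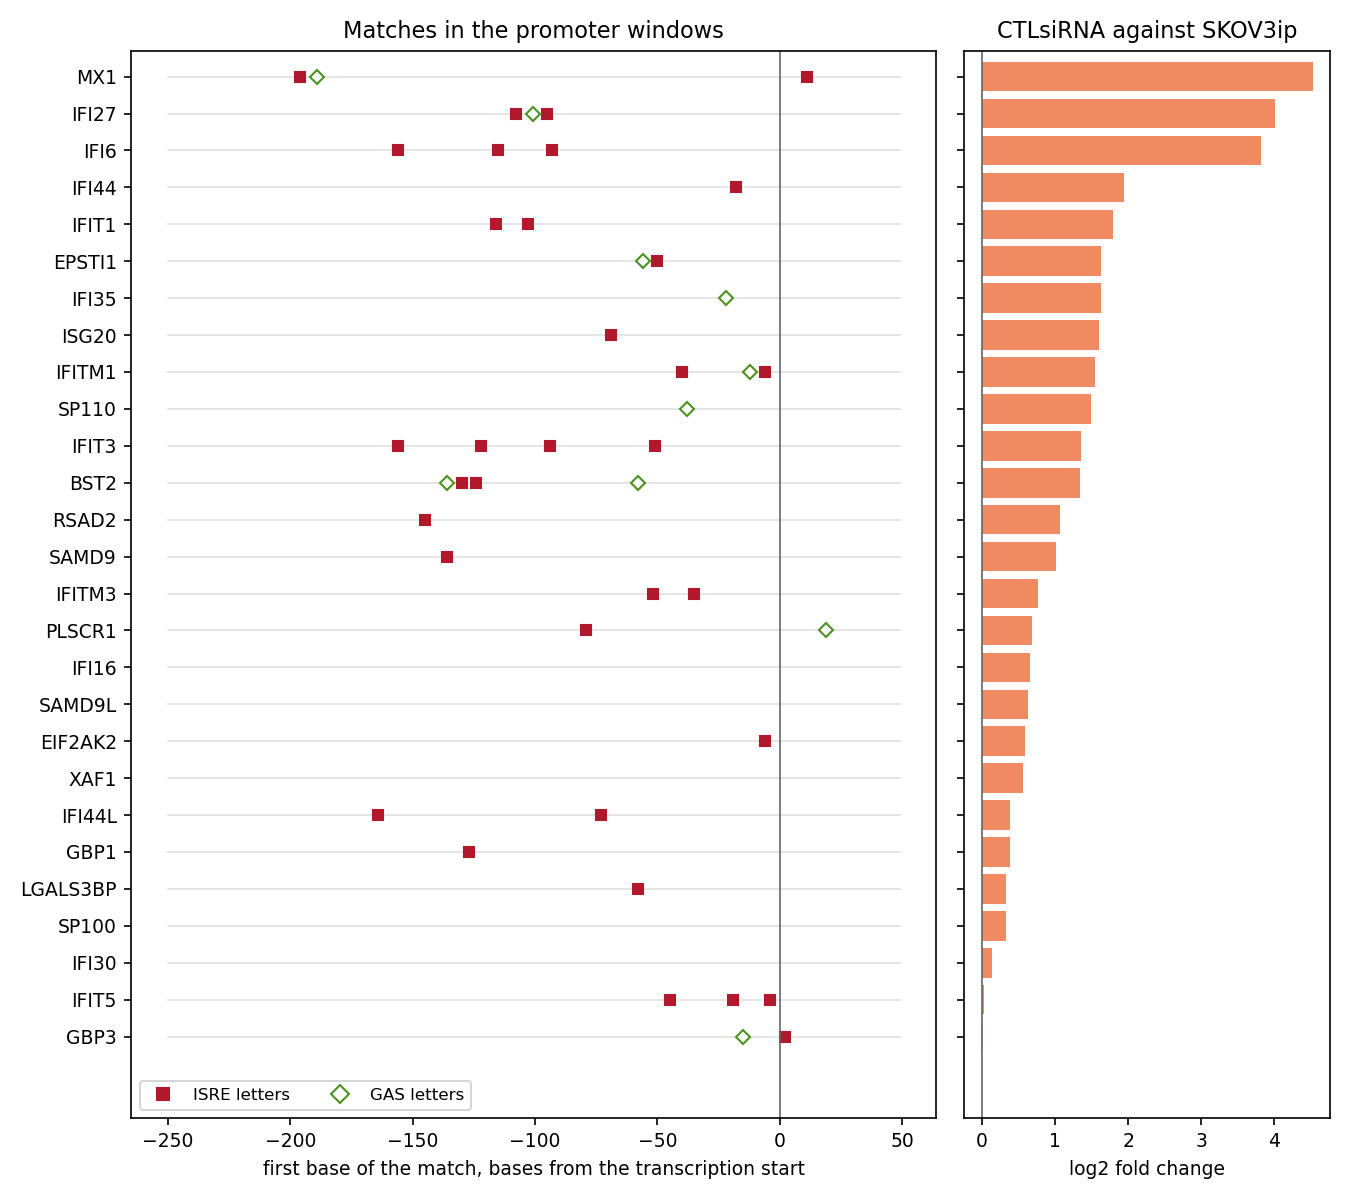
Left, positions of ISRE (filled squares) and GAS letters (open diamonds) in the RefSeq promoter windows of the tested members that have one, in bases from the transcription start (all annotated starts of a gene in 1 row); right, the log2 fold change of the same genes, control siRNA (CTLsiRNA) against untransfected cells (SKOV3ip). Squares stand in 17 of the 22 rows of called members and in 3 of the 5 rows of uncalled ones.

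Control siRNA against untransfected cells compares a transfected group with cells given no siRNA. No group was labelled as given the reagent alone, so the siRNA, the reagent and the handling cannot be told apart. The members were mostly higher: 25 of the 35 tested were called higher, against 4.92% of the 10967 tested genes, and 0 were called lower, against 2.94%. Their median log2 fold change was 0.65, beside 0.02 over all tested genes, and 33 of the 35 had a log2 fold change above 0, as did 53.3% of tested genes. The median was also 0.65 with the 5 members dim on all untransfected arrays at their lower bound. Of these, SAMD9L, XAF1, MX2 and IFI44L already lay below it, so their bounds could not move it. The control siRNA arrays lay wholly above the untransfected arrays for 25 members, against 9.59% of tested genes, and 6.52% of all tested probes were called in either direction. These counts include members that could be tested only because they were above background after transfection. Such members are all those above background on fewer than 4 untransfected arrays. Among the 19 members above background on all 4 untransfected arrays, 14 were called higher and the median log2 fold change was 0.76.

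Among the GTPases, 3 of 5 were called higher, against 4.92% of tested genes. Of these, MX2 could be tested only through the transfected groups. GBP1, whose brightest probe was above background on 2 of 4 untransfected arrays, also needed transfected arrays. MX1, a GTPase that traps incoming viral nucleocapsids, had log2 levels of 11.46, 11.22, 11.53 and 11.49 with control siRNA and 6.82, 6.77, 6.80 and 7.19 in untransfected cells. The groups lay far apart, and MX1 rose by 4.53 (23.1-fold, SE 0.14, 95% confidence interval 4.25 to 4.81, adjusted p = 4.67e-15), the largest difference among the 35 tested members. Its chromosomal neighbour MX2, which blocks nuclear entry of HIV, was above background on 4 of 4 control siRNA arrays and on 0 of 4 untransfected arrays. Its difference is therefore a bound, at least 1.15-fold higher (adjusted p = 0.0197). The guanylate-binding protein GBP1 rose by 0.39 (adjusted p = 0.0464), and a second GBP1 probe rose by 0.49 (adjusted p = 0.0498). The neighbouring GBP2 (log2 fold change 0.14) and GBP3 (−0.02) were not called.

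Of the small interferon-induced proteins, 5 of 5 were called higher, against 4.92% of tested genes. IFI44L could be tested only through the transfected groups. IFI44, above background on 3 of 4 untransfected arrays, also needed transfected arrays to be tested. IFI27, a mitochondrial and nuclear-envelope protein, stood at 11.11, 10.83, 10.90 and 11.08 with control siRNA and at 7.02, 6.93, 6.91 and 7.00 in untransfected cells. It rose by 4.01 (16.1-fold, SE 0.12, adjusted p = 4.67e-15), with no array of either group near the other. IFI6, a membrane protein that limits flavivirus replication, had levels of 12.76, 12.47, 12.80 and 12.68 with control siRNA and 9.20, 8.90, 8.73 and 8.59 in untransfected cells. It rose by 3.82 (14.1-fold, SE 0.13), and its second probe rose by 3.63. IFI44, a cytoplasmic protein, had levels of 8.24, 8.62, 8.65 and 8.59 with control siRNA against 6.69, 6.67, 6.49 and 6.47 without siRNA, and rose by 1.95 (3.85-fold). IFI35, a partner of the interferon-induced protein NMI, had levels of 9.98, 9.66, 9.90 and 10.14 against 8.20, 8.50, 8.35 and 8.10 in untransfected cells, and rose by 1.63 (3.09-fold). The groups did not overlap for either gene. IFI44L, next to IFI44 on chromosome 1, was below background on all 4 untransfected arrays and was at least 1.02-fold higher with control siRNA (adjusted p = 0.0498).

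The IFIT proteins bind viral RNA and stall its translation, and 3 of the 4 measured were called higher, against 4.92% of tested genes. IFIT1, which recognises RNA caps that lack a host methyl mark, had levels of 7.93, 8.05, 8.18 and 8.01 with control siRNA and 6.40, 6.16, 6.42 and 6.00 in untransfected cells. All control siRNA arrays were above all untransfected arrays, and IFIT1 rose by 1.80 (3.47-fold, SE 0.14, adjusted p = 3.88e-08). IFIT3 rose by 1.36 and IFIT2 by 1.30. In untransfected cells IFIT1 and IFIT3 lay above background on 2 of 4 arrays each and IFIT2 on 1, so these differences are measured from a level near background. All 3 could be tested only because transfected arrays were above background. IFIT5, which lies next to IFIT1 and carries ISRE letters, stood at 0.03 (adjusted p = 0.924). The IFITM proteins, which hinder fusion of enveloped viruses with endosomes, were called higher in 3 of 3 cases, against 4.92% of tested genes. IFITM1 rose by 1.54, IFITM3 by 0.76 and IFITM2 by 0.60. IFITM1 lay above background on 3 of 4 untransfected arrays, so it too needed transfected arrays to be tested. IFITM2 and IFITM3 are near-identical, and the probe sequences were not used here, so signal shared between the 2 cannot be separated.

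**Figure D2:**
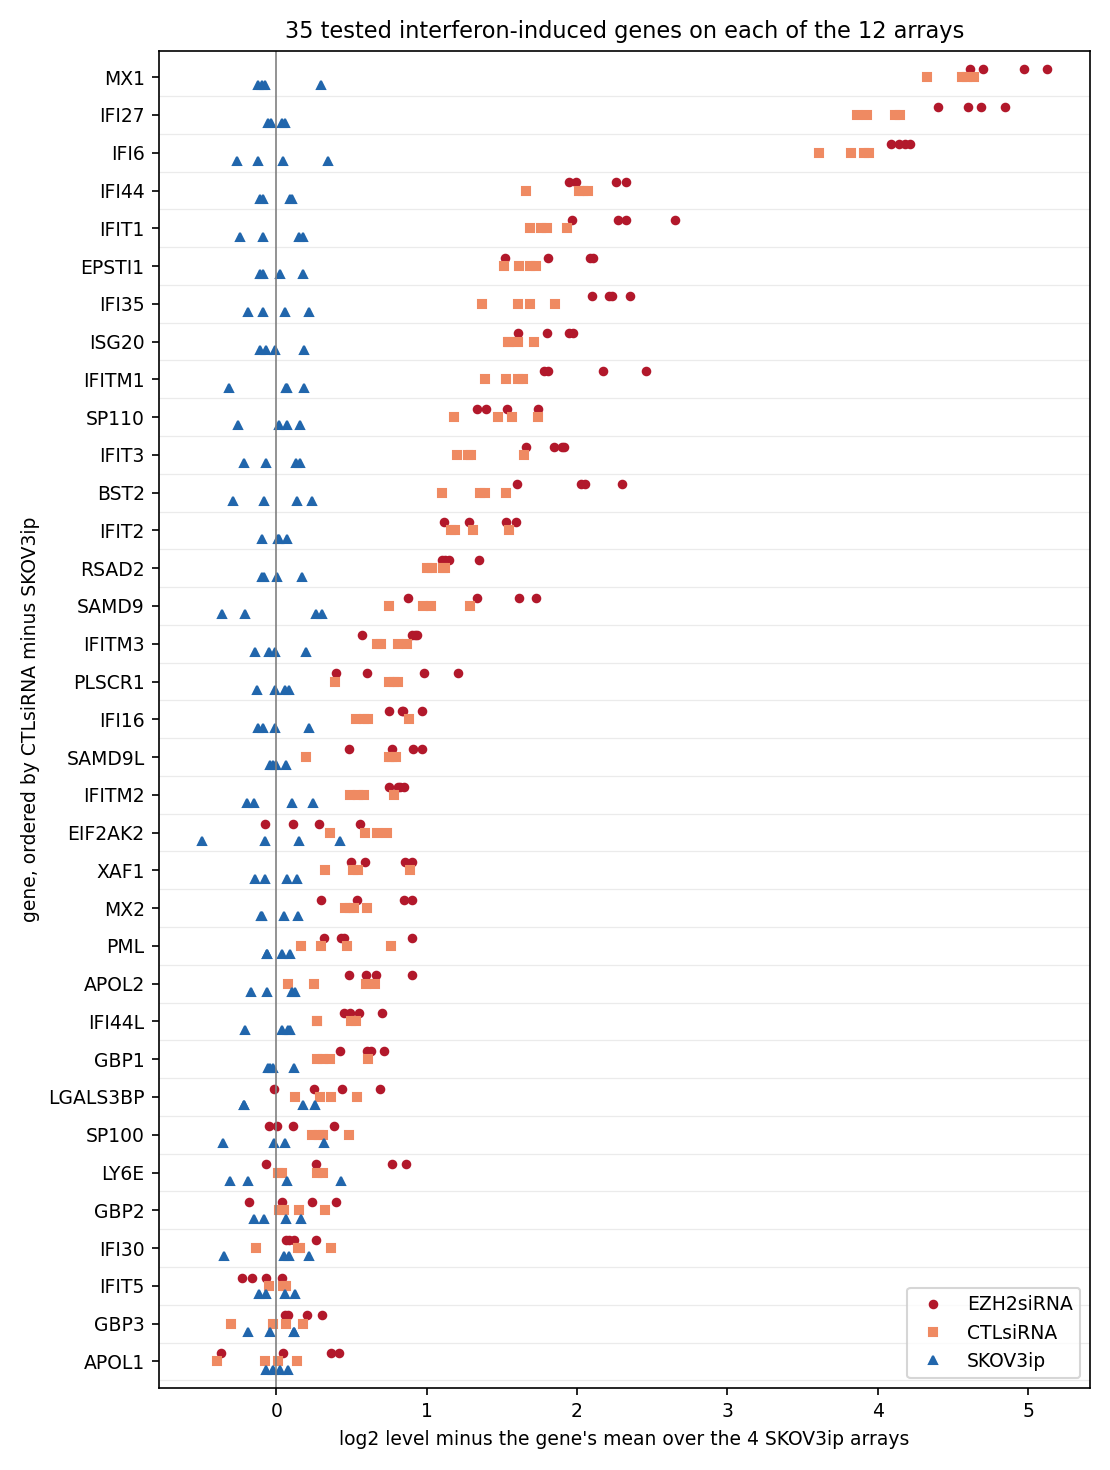
The 35 tested members on each of the 12 arrays, 1 gene per row and 1 point per array, as the log2 level minus the gene's mean over the untransfected arrays (x axis), for EZH2 siRNA (EZH2siRNA), control siRNA (CTLsiRNA) and untransfected cells (SKOV3ip). The points of both siRNA groups lie to the right of the untransfected points in the upper rows, led by MX1, and mix with them in the lowest rows.

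Of the 5 enzymes acting on nucleotides and RNA, 3 were called higher, against 4.92% of tested genes, and CMPK2 and SAMHD1 were not tested. RSAD2, among the 3, could be tested only through the transfected groups. ISG20, an exonuclease that degrades viral RNA, had levels of 8.56, 8.45, 8.39 and 8.38 with control siRNA against 6.73, 7.02, 6.83 and 6.77 in untransfected cells. The groups did not overlap and ISG20 rose by 1.60 (3.04-fold, SE 0.12, adjusted p = 1.55e-08). RSAD2 (viperin), which makes a chain-terminating nucleotide, was above background on all 4 control siRNA arrays and below it on all 4 untransfected arrays, at least 1.76-fold higher (adjusted p = 1.77e-06). EIF2AK2 (PKR), the kinase that shuts down translation on sensing double-stranded RNA, had levels of 9.77, 10.09, 10.01 and 10.16 with control siRNA and 9.84, 9.57, 8.92 and 9.34 without siRNA. It rose by 0.59 (adjusted p = 0.0408), with arrays that overlapped between the groups.

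EPSTI1, a protein first described in breast cancer cells, had levels of 8.36, 8.46, 8.54 and 8.58 with control siRNA against 7.03, 6.74, 6.87 and 6.76 in untransfected cells. It rose by 1.63 (3.11-fold, SE 0.13, adjusted p = 6.48e-08) without overlap. BST2 (tetherin), which holds budding virions on the cell surface, rose by 1.34. The nuclear-body protein SP110 rose by 1.49 on its brightest probe, and its other 2 tested probes rose by 1.33 and 0.91. The phospholipid scramblase PLSCR1 rose by 0.68 and the DNA sensor IFI16 by 0.65. SAMD9, a restriction factor for poxviruses, rose by 1.01. Its neighbour and relative SAMD9L was at least 1.19-fold higher, and the pro-apoptotic XAF1 at least 1.08-fold higher, both being below background on all 4 untransfected arrays.

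**Figure D3:**
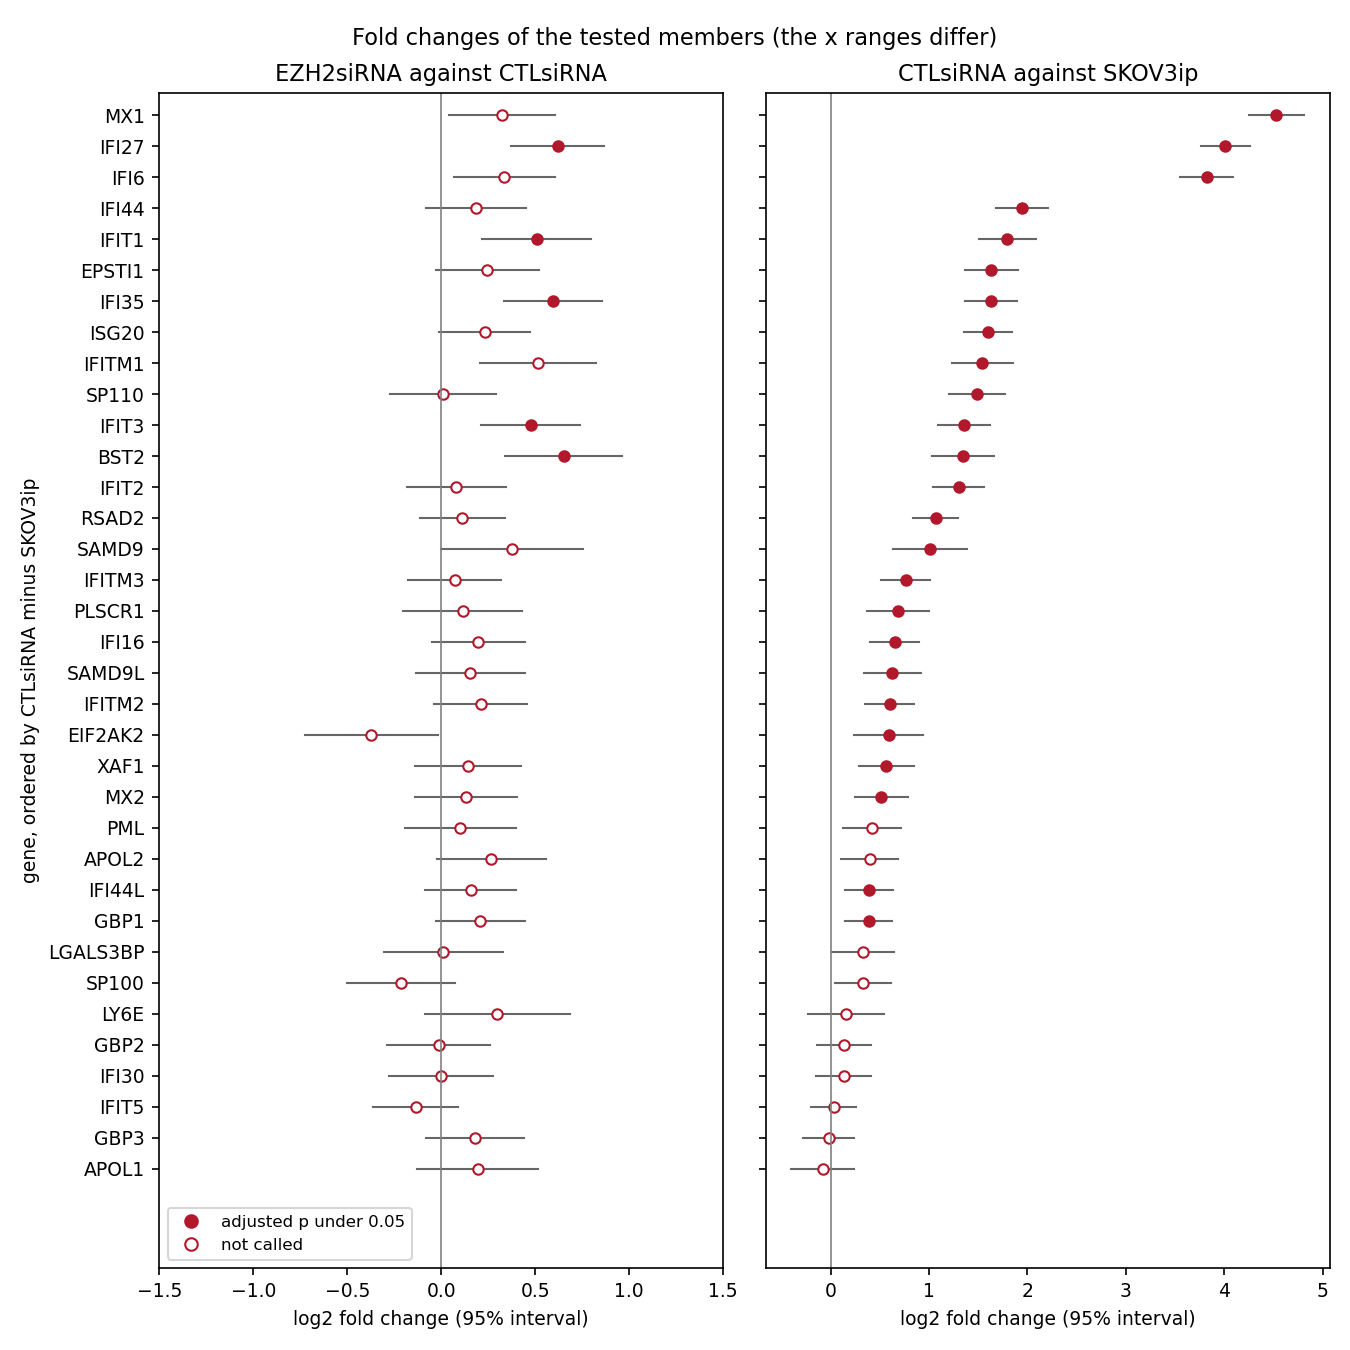
Log2 fold changes of the 35 tested members, EZH2 siRNA against control siRNA and control siRNA against untransfected cells, with 95% confidence intervals from limma; filled points were called. For RSAD2, SAMD9L, XAF1, MX2 and IFI44L the points on the right are fitted values from a level below background, and the text gives their bounds. The second comparison spans −0.08 (APOL1) to 4.53 (MX1), the first −0.37 (EIF2AK2) to 0.65 (BST2).

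The remaining 10 tested members were not called. PML, the scaffold of the nuclear bodies that repress incoming viral genomes, came nearest. Its levels were 7.25, 6.95, 6.64 and 6.78 with control siRNA and 6.52, 6.42, 6.57 and 6.42 in untransfected cells, which do not overlap (log2 fold change 0.42, 95% confidence interval 0.13 to 0.72, adjusted p = 0.0838). SP100, its partner in these bodies, had levels of 6.81, 6.78, 6.74 and 6.99 against 6.56, 6.82, 6.48 and 6.15 without siRNA (0.33, interval 0.04 to 0.62, adjusted p = 0.183). APOL2, an apolipoprotein L, had levels of 6.89, 7.47, 7.07 and 7.41 against 6.94, 6.75, 6.92 and 6.64 (0.40, interval 0.11 to 0.68, adjusted p = 0.101). These 3 intervals lie above 0, but the differences did not pass the adjustment over all probes.

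LGALS3BP, a secreted glycoprotein that binds galectins, had levels of 9.75, 10.0, 9.58 and 9.82 with control siRNA and 9.24, 9.25, 9.72 and 9.63 in untransfected cells (log2 fold change 0.33, interval 0.01 to 0.65). LY6E, a surface protein that impairs coronavirus fusion, had levels of 10.89, 10.62, 10.60 and 10.85 against 10.28, 10.39, 10.65 and 11.02 (0.16, interval −0.23 to 0.54). GBP2 had levels of 6.35, 6.31, 6.62 and 6.45 against 6.46, 6.36, 6.21 and 6.15 (0.14, interval −0.14 to 0.41). In all 3 the arrays of the groups overlapped.

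IFI30, a lysosomal thiol reductase used in antigen processing, had levels of 6.69, 6.49, 6.20 and 6.47 with control siRNA and 6.55, 6.41, 6.38 and 5.98 in untransfected cells (log2 fold change 0.13, interval −0.15 to 0.41). IFIT5 had levels of 6.19, 6.30, 6.30 and 6.29 against 6.37, 6.30, 6.13 and 6.17 (0.03, interval −0.20 to 0.26). GBP3 had levels of 6.59, 6.87, 7.06 and 6.95 against 6.84, 7.01, 6.70 and 7.00 (−0.02, interval −0.28 to 0.24). APOL1, which lyses trypanosomes, had levels of 6.29, 6.61, 6.82 and 6.69 against 6.61, 6.70, 6.65 and 6.75 (−0.08, interval −0.40 to 0.24). For IFI30, IFIT5, GBP3 and APOL1 the intervals ended below the members' median of 0.65. So did those of GBP2 (upper end 0.41), LY6E (0.54), SP100 (0.62) and LGALS3BP (0.646, with the median at 0.651). IFIT5 had median raw signals of 70.1 units with control siRNA and 65.4 in untransfected cells, and IFI30 had 87.8 and 76.2. Near background, the 50 units added in background correction shrink fold changes. For dim members such as IFIT5 and IFI30, the intervals therefore cannot exclude a larger difference in RNA.

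ISRE letters were found in 17 of the 22 members called higher that had a promoter window, the exceptions being IFI35, SAMD9L, IFI16, SP110 and XAF1. They were found in 3 of the 5 uncalled members with a window (GBP3, IFIT5 and LGALS3BP) and in 1 of the 4 untested ones (CXCL10). GAS letters were in 8 of the 22, 1 of the 5 and 1 of the 4. The letters were thus present in members that were not called and absent from some that were.

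Probes of 1 gene did not always give the same call. SP100 was not called on its brightest probe (0.33) or on ILMN_1690920 (0.21), but ILMN_2284998 was called higher after control siRNA than without siRNA. On that probe the levels were 6.66, 6.62, 6.78 and 6.71 with control siRNA against 6.12, 6.21, 6.31 and 5.82 (0.58, adjusted p = 0.00368). Of the 3 tested IFIT3 probes, ILMN_1701789 (1.36) and ILMN_2239754 (at least 1.23-fold higher) were called and ILMN_1664543 (adjusted p = 0.163) was not. The last 2 lay below background on all 4 untransfected arrays, as did both tested XAF1 probes. XAF1 was called on ILMN_1742618, above background on 3 of the 4 control siRNA arrays, and not on ILMN_2370573, above it on 2. The 5 tested PML probes were not called after control siRNA. Transcript isoforms and probe affinity cannot be told apart from these values.

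Of these 25 calls, 5 depended on single arrays. GBP1 lost its call when any single array other than untransfected array 4 was left out (adjusted p up to 0.151), and IFI44L lost it without any 1 of the 8 arrays (up to 0.157). EIF2AK2 lost it without untransfected array 3 or 4 or control siRNA array 2, 3 or 4 (up to 0.136). MX2 lost it without untransfected array 1 or 2 or control siRNA array 3 (up to 0.0696), and XAF1 without control siRNA array 4 (0.0703). With arrays scaled to the 75th percentile of the probes above background on all arrays, under which the median over all probes was −0.14, 15 members were called higher.

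EZH2 siRNA against control siRNA compares 2 transfected groups. The test called 5 of the 35 members higher, against 2.08% of tested genes, and 0 lower, against 2.81%. The median log2 fold change of the members was 0.18, beside −0.02 over all tested genes. A log2 fold change above 0 was found for 30 of the 35 members and for 45.8% of tested genes. The EZH2 siRNA arrays lay wholly above the control siRNA arrays for 7 members, against 5.4% of tested genes, and 4.24% of all tested probes were called in either direction. Among the 19 members above background on all untransfected arrays, 3 were called higher and the median was 0.23.

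BST2 had levels of 11.55, 11.31, 10.86 and 11.28 with EZH2 siRNA and 10.61, 10.36, 10.65 and 10.78 with control siRNA. It rose by 0.65 (1.57-fold, SE 0.15, 95% confidence interval 0.34 to 0.96, adjusted p = 0.0163), the largest difference among the tested members. IFI27 had levels of 11.82, 11.65, 11.36 and 11.56 against 11.11, 10.83, 10.90 and 11.08 with control siRNA. It rose by 0.62 (1.54-fold, SE 0.12, interval 0.37 to 0.87, adjusted p = 0.00451), with no overlap of arrays.

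IFI35 had levels of 10.64, 10.50, 10.39 and 10.52 with EZH2 siRNA and 9.98, 9.66, 9.90 and 10.14 with control siRNA, and rose by 0.59 (1.51-fold, SE 0.13, adjusted p = 0.00972). IFIT1 had levels of 8.21, 8.90, 8.52 and 8.57 against 7.93, 8.05, 8.18 and 8.01, and rose by 0.51 (1.42-fold, SE 0.14, adjusted p = 0.0422). IFIT3 had levels of 8.07, 7.88, 8.13 and 8.14 against 7.50, 7.43, 7.88 and 7.52, and rose by 0.48 (1.39-fold, SE 0.13, adjusted p = 0.0365). Its lowest EZH2 siRNA array and its highest control siRNA array were almost level. The other IFIT3 probes, ILMN_2239754 and ILMN_1664543, each had a log2 fold change of 0.21 and were not called.

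IFITM1 had levels of 8.49, 8.47, 9.15 and 8.86 with EZH2 siRNA against 8.22, 8.08, 8.30 and 8.33 with control siRNA, which do not overlap, yet its log2 fold change of 0.51 was not called (adjusted p = 0.0543). IFI6 had levels of 12.99, 12.94, 13.07 and 13.04 against 12.76, 12.47, 12.80 and 12.68 (0.33, adjusted p = 0.154), also without overlap. MX1, first after control siRNA, had levels of 11.59, 11.51, 12.03 and 11.87 against 11.46, 11.22, 11.53 and 11.49 (0.32, adjusted p = 0.193), and the groups overlapped. The 5 members with a log2 fold change of 0 or less were EIF2AK2 (−0.37), SP100 (−0.21), IFIT5 (−0.14, below background on all 4 EZH2 siRNA arrays), GBP2 (−0.01) and IFI30 (−0.0015), none of them called.

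**Figure D4:**
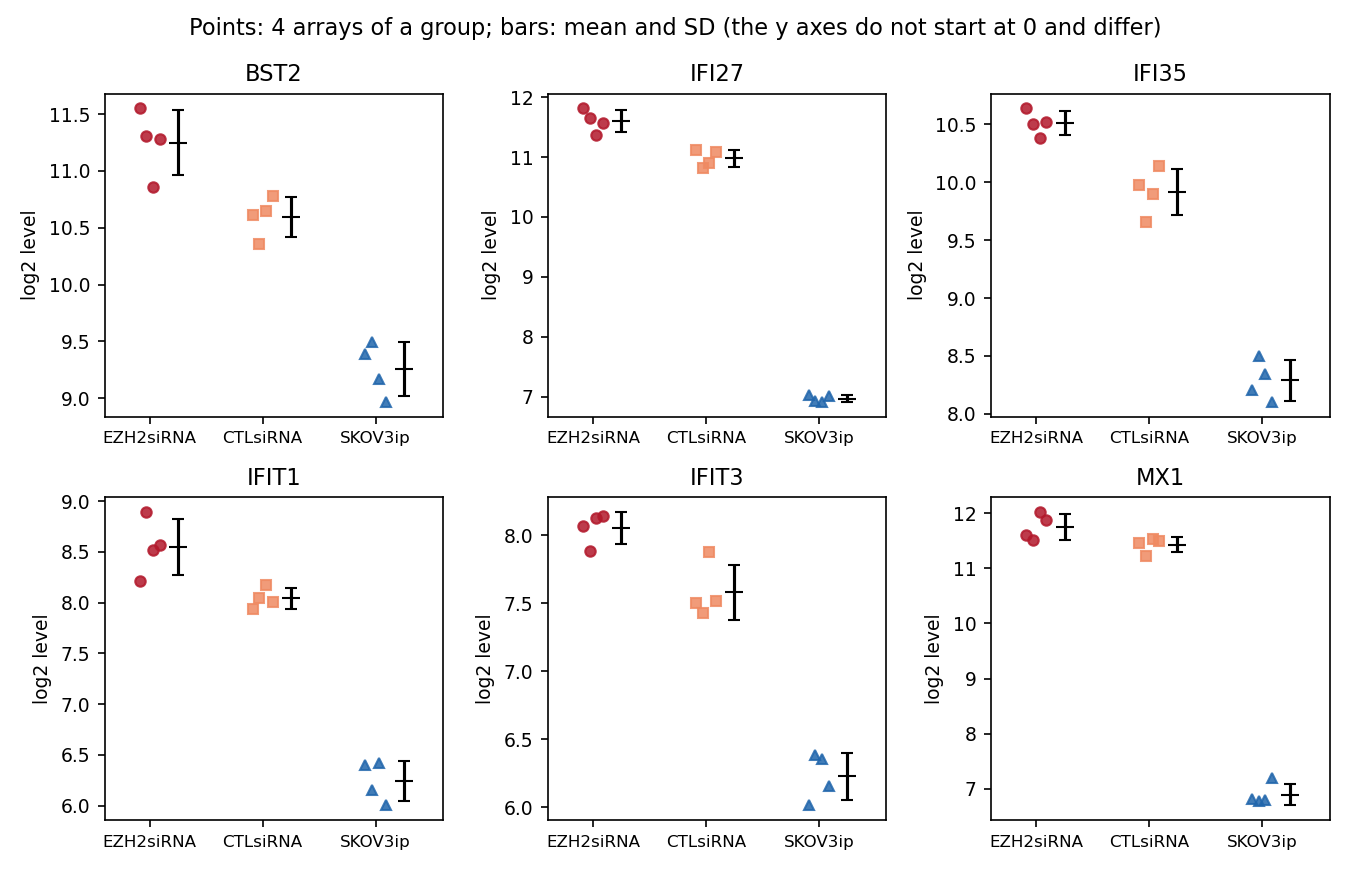
Log2 levels of the 5 members called higher with EZH2 siRNA than with control siRNA, and of MX1, by group, with 1 point per array and the group mean with its SD beside the points. In each of the 5, the EZH2 siRNA points lie above the control siRNA points, and the distance from either to the untransfected points is larger than the distance between them.

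The 5 calls were made on arrays that differed in brightness, EZH2 siRNA arrays being the dimmer. Before normalisation the median raw signal of BST2 was 1832 with EZH2 siRNA and 1768 with control siRNA, that of IFI27 was 2405 and 2301 in the same 2 groups, and that of IFI35 was 1195 and 1087. IFIT1 had 303 raw units with EZH2 siRNA and 315 with control siRNA, and IFIT3 had 201 and 225, so for these the order of the groups differs before and after normalisation. With array brightness as a covariate, BST2 (0.73), IFI27 (0.58), IFI35 (0.64) and IFIT1 (0.67) were still called, IFIT3 was not (0.44, adjusted p = 0.106), and IFITM1 was (0.68, adjusted p = 0.0137). Without the 3 dimmest arrays only IFIT1 of the 5 was called (0.67, adjusted p = 0.032). BST2 then had 0.48 (adjusted p = 0.196), IFI27 0.53 (0.081), IFI35 0.53 (0.121) and IFIT3 0.42 (0.255). The arrays left out were EZH2 siRNA arrays 1 and 4 and untransfected array 4. The EZH2 siRNA group was thus smaller, so brightness and the loss of arrays cannot be told apart in that run.

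Single arrays also decided some of these calls. BST2 lost its call without control siRNA array 2 (0.57, adjusted p = 0.0821) or EZH2 siRNA array 1 (0.55, adjusted p = 0.083), and IFI35 without control siRNA array 2 (0.51, adjusted p = 0.0548). IFIT1 lost it without any 1 of the control siRNA arrays or without EZH2 siRNA array 2 or 4 (adjusted p up to 0.113). IFIT3 lost it without control siRNA array 1, 2 or 4 or EZH2 siRNA array 1, 3 or 4 (up to 0.139). IFI27 was called with each array left out in turn (adjusted p up to 0.0294). Under either scaling to a 75th percentile 0 members were called, with IFI27 at 0.32 (adjusted p = 0.254) and at 0.66 (0.155).

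EZH2 siRNA against untransfected cells holds transfection and the EZH2 siRNA together, and shares its arrays with the other 2 comparisons. There 26 of the 35 members were called higher, against 10.2% of tested genes, and 0 lower, against 8.6%. The 26 include RSAD2, SAMD9L, XAF1, MX2 and IFI44L, which lay below background on all untransfected arrays and could be tested only through the transfected groups. IFI44, IFITM1, PML, GBP1, IFIT1, IFIT2 and IFIT3, also among the 26, lay above background on 1 to 3 untransfected arrays. Their probes too needed transfected arrays to reach the required 4. Among the 19 members above background on all 4 untransfected arrays, 14 were called higher and the median log2 fold change was 0.85. Over all 35 the median was 0.81, beside 0.00 over all tested genes, and 34 of 35 were above 0, as were 49.7% of tested genes. The median was also 0.81 with the 5 members dim on all untransfected arrays at their lower bound. Of these, SAMD9L, XAF1, MX2 and IFI44L already lay below it, so their bounds could not move it. The EZH2 siRNA arrays lay wholly above the untransfected arrays for 26 members, against 10.2% of tested genes, and 17% of all tested probes were called in either direction. MX1 rose by 4.85 (28.9-fold), IFI27 by 4.63 (24.8-fold) and IFI6 by 4.16 (17.8-fold). IFIT1 rose by 2.30, IFI35 by 2.22, IFI44 by 2.13, IFITM1 by 2.05 and BST2 by 1.99.

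Only APOL2 and PML were called in this comparison and not after control siRNA, and only EIF2AK2 the other way round. APOL2 had levels of 7.41, 7.30, 7.72 and 7.48 with EZH2 siRNA and rose by 0.66 (adjusted p = 0.00266), and its second probe ILMN_2325338 rose by 0.83. PML had levels of 7.38, 6.80, 6.91 and 6.94 and rose by 0.52 (adjusted p = 0.0148). A second PML probe, ILMN_2398378, was also called (0.45, adjusted p = 0.0337), and its other 3 tested probes had 0.14, 0.08 and 0.01. PML lost its call without EZH2 siRNA array 1 (0.40, adjusted p = 0.0646). EIF2AK2 had levels of 9.53, 9.98, 9.70 and 9.34 with EZH2 siRNA, 0.22 above the untransfected mean (adjusted p = 0.418). The direct difference of EZH2 siRNA against control siRNA was not called for APOL2, PML or EIF2AK2. Of the members dim on all 4 untransfected arrays, RSAD2 was at least 1.90-fold higher with EZH2 siRNA than without siRNA, SAMD9L 1.32-fold, MX2 1.25-fold, XAF1 1.20-fold and IFI44L 1.13-fold.

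Averaged over the 35 tested members, the log2 level per array ran from 8.60 to 8.64 with EZH2 siRNA (mean 8.62 ± 0.017, SD, n = 4), from 8.35 to 8.48 with control siRNA (8.42 ± 0.056) and from 7.28 to 7.39 in untransfected cells (7.35 ± 0.052). The 3 ranges do not overlap. The average includes the 5 members above background on 0 untransfected arrays. They passed the filter only through the transfected groups and so had to differ from untransfected cells. Members above background on 1, 2 or 3 untransfected arrays also needed transfected arrays to reach the 4 required. Over the 19 members above background on all 4 untransfected arrays the average was 9.83 ± 0.028 with EZH2 siRNA, 9.59 ± 0.064 with control siRNA and 8.27 ± 0.054 in untransfected cells (SD, n = 4). The ranges were 9.81 to 9.87, 9.51 to 9.66 and 8.21 to 8.32. As a description of the untransfected cells, 19 tested members lay above background on all 4 arrays, 5 on 3, 5 on 2, 1 (IFIT2) on 1 and 5 on 0 (RSAD2, SAMD9L, XAF1, MX2 and IFI44L). The 19 include BST2, IFITM2, IFITM3, LY6E, LGALS3BP, EIF2AK2, IFI35 and IFI6. MX1 and IFI27 were among the 19 too, with median raw signals of 107.5 and 119.9 units in untransfected cells, against 3252 and 2301 with control siRNA.

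The rest of the pathway was read from fixed lists. Of all tested genes, 4.92% were called higher after control siRNA than without siRNA, and 2.08% higher with EZH2 siRNA than with control siRNA. Of 13 interferon genes, the ligands, 1 was tested, IFNA8, with a log2 fold change of 0.05 between EZH2 siRNA and control siRNA and −0.03 between control siRNA and untransfected cells. The type I gene IFNB1 and the type III genes IFNL1, IFNL2 and IFNL3 lay above background on 0 arrays, and IFNW1 and IFNG on 1 each, so no difference in them was detectable. All 6 receptor genes were tested, and only IFNGR2, a chain of the interferon gamma receptor, was called, higher after control siRNA than without siRNA (0.40, adjusted p = 0.0479).

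In the signalling list 8 of 10 genes were tested, the other 2 being not analysed here. After control siRNA 3 of the 8 were called higher than without siRNA, against 4.92% of tested genes, and 0 lower, against 2.94%. IRF9, the DNA-binding subunit named above, had levels of 10.75, 10.42, 10.46 and 10.73 with control siRNA against 7.88, 7.49, 7.41 and 7.35, and rose by 3.06 (adjusted p = 9.63e-13). IRF7, a factor that amplifies interferon transcription, had levels of 9.67, 9.37, 9.72 and 9.58 with EZH2 siRNA, 9.09, 8.95, 9.05 and 9.24 with control siRNA and 7.48, 7.61, 7.58 and 7.37 in untransfected cells. It rose by 1.57 after control siRNA, and was the only one of the 8 called between EZH2 siRNA and control siRNA (0.50, adjusted p = 0.017). IRF9 did not follow it there (−0.02, adjusted p = 0.966).

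Among the nucleic acid sensors and their adaptors, 8 of 12 were tested. After control siRNA 4 were called higher than without siRNA, against 4.92% of tested genes, and 0 lower, against 2.94%. IFIH1 (MDA5), a sensor of long double-stranded RNA, rose by 1.16 (adjusted p = 3.61e-06) and the adaptor STING1 by 0.76 (adjusted p = 0.0025). With EZH2 siRNA against control siRNA 0 of the 8 were called, and for IFIH1 the log2 fold change was −0.41 (adjusted p = 0.0714). Of 6 feedback inhibitors 5 were tested, and TRIM21, a cytosolic antibody receptor and ubiquitin ligase, was the only one called after control siRNA, where it rose by 0.83 (adjusted p = 0.000251). Between EZH2 siRNA and control siRNA 0 of the 5 were called.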

How the data were processed

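RNA of 12 arrays (4 per group) was labelled with biotin and hybridised to Illumina bead arrays. The labels name 2 array types, and the files hold 48803 probes. Signals were exported with BeadStudio 3.2, per the submitters' processing notes. The authors deposited a raw intensity table, whose export settings the sources used here do not state, and a log2 table, which the raw table matched to within 5e-05 after log2 and quantile normalisation.

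The normexp background correction (with 50 added) and quantile normalisation were run on the raw intensities with limma 3.58.1 in R 4.3.3. Without deposited detection p-values, an array's background was its most frequent signal with the spread below mirrored above (p under 0.01). All 12 arrays entered 1 model of 3 groups (lmFit, eBayes), with Benjamini-Hochberg adjustment over 17297 tested probes (31506 were not tested). The number of arrays limits the precision. In the annotation 28098 probes had 1 gene symbol, 13 had several and 20692 had none. A member below background on every untransfected array got a bound: its control or EZH2 siRNA mean against the higher, per array, of its own signal and the lowest signal above background.

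Named members were the 8 largest differences after control siRNA, those not called there, those called or among the 4 largest between the siRNAs, and those whose probes disagreed. Members, lists and rules were chosen with earlier results of these data known. The pipeline was tested on simulated data. Alternatives covered scaling, background, filters, probe choice, samples fitted, replicate number, brightness and each array left out. Figures used matplotlib 3.10.9.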

Additional observations from a re-analysis of the deposited data

Results flagged for a closer look

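In 6 of the 105 combinations of member and group, 1 of the 4 arrays lay far from the other 3 by Dixon's criterion, about as many as the 1 in 20 that chance gives. In untransfected array 4, the dimmest array, MX1 stood at 7.192 with the other 3 between 6.77 and 6.82, while the MX1 levels with control siRNA were all above 11. IFITM3 stood at 12.71 in EZH2 siRNA array 2, with the others between 13.04 and 13.07. The control siRNA group held the other four cases. Control siRNA array 1 was low for IFI44 (8.241, others 8.59 to 8.65), for SAMD9L (6.146, others 6.70 to 6.75) and for IFIT5 (6.193, others 6.29 to 6.30). Control siRNA array 4 was low for PLSCR1 (7.333, others 7.69 to 7.75). IFI44, SAMD9L and PLSCR1 kept their calls after control siRNA against untransfected cells with each array left out in turn, and IFIT5 was not called.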

How the results depend on the processing

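For EZH2 siRNA against control siRNA, 0 members were called higher with arrays shifted by the 75th percentile of all probes (member median 0.060, all probes −0.11, 144 probes called) and 0 when it was taken over probes above background on all arrays (0.40, 0.24 and 98). With background estimated per array and 16 added, 3 were called (median 0.25), and without the 3 dimmest arrays 1 was (172 probes called). The last of these runs lacked EZH2 siRNA arrays 1 and 4 and untransfected array 4. For control siRNA against untransfected cells, the all-probe shift gave 17 members called higher, a median of 0.78 and 310 called probes. The other shift gave 15 members, a median of 0.59 and 349 probes. The median was 0.72 on the deposited log2 table, 0.93 with own background, 0.59 with no filter and 0.76 with a filter of 8 arrays. For EZH2 siRNA against untransfected cells, the all-probe shift gave 20 members called higher and 486 called probes. The other shift gave 19 members, a median of 0.93 and 810 probes. The median was 0.85 on the deposited table, 1.11 with own background, 0.75 with no filter and 0.86 without the dimmest arrays (1084 probes). With 1 array left out in turn, the members called higher with EZH2 siRNA against control siRNA numbered 1 to 5 (median 0.16 to 0.21, 283 to 1292 probes called), those with control siRNA against untransfected cells 21 to 23 (0.62 to 0.72, 680 to 1000 probes) and those with EZH2 siRNA against untransfected cells 25 to 27 (0.78 to 0.85, 1922 to 3212 probes). Members called lower were 0 in every alternative run. The causes of these shifts were not tested.

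Signs turned only for members that were not called in that comparison. For EZH2 siRNA against control siRNA, the all-probe shift gave GBP2 0.15, IFIT2 −0.14, IFIT5 0.089, IFITM3 −0.11, LY6E −0.0049, PLSCR1 −0.11, LGALS3BP −0.33, IFI44 −0.13, RSAD2 −0.034, ISG20 −0.077, IFI16 −0.068, SP110 −0.31, EPSTI1 −0.054 and IFI30 0.13. The other shift gave GBP2 0.49, IFIT5 0.43, SP100 0.14 and IFI30 0.47, and own background gave IFI30 0.0071. Brightness as a covariate gave GBP2 0.14, LY6E −0.014, LGALS3BP −0.15 and IFI30 0.16. Without the dimmest arrays GBP2 had 0.18, IFITM3 −0.025, LY6E −0.060, LGALS3BP −0.21, PML −0.050 and IFI30 0.057. With 1 array left out, LGALS3BP ran from −0.10 to 0.13, SP110 from −0.094 to 0.092, IFI30 from −0.090 to 0.075, GBP2 from −0.11 to 0.087, PML from −0.023 to 0.22 and PLSCR1 from −0.023 to 0.25. For control siRNA against untransfected cells, the all-probe shift gave GBP3 0.037 and IFIT5 −0.045, the other shift GBP2 −0.11, IFIT5 −0.24 and IFI30 −0.15, and leaving out the dimmest arrays GBP3 0.019. With 1 array left out, GBP3 ran from −0.085 to 0.074, IFIT5 from −0.0078 to 0.073 and APOL1 from −0.15 to 0.026. For EZH2 siRNA against untransfected cells, IFIT5 had 0.044 and 0.19 under the 2 shifts, and SP100 ran from −0.0050 to 0.22 with 1 array left out.

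Arrays with the same replicate number did not deviate together throughout (correlations −0.38 to 0.46, the highest between EZH2 siRNA array 2 and untransfected array 2). For some arrays the closest partner had the same number and for others it did not, so the numbers were not taken as pairs. With the replicate number as a block, 5 members were called between the siRNAs (767 probes), 23 after control siRNA (GBP1 and IFI44L lost; 1065 probes) and 26 with EZH2 siRNA against untransfected cells (2924 probes). A chip block was not run, since the headers give no chip. Signal over background limits the members near it, where the offset shrinks the fold changes.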
